A study of Mus musculus with 4 samples.

Results

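Nuclear receptors are transcription factors that bind DNA through a pair of zinc fingers and, in most members, switch between repression and activation when a small lipid-soluble ligand binds. The members described here are all probe sets whose single gene symbol matches a set of receptor names. These are the Nr series with letters a to h, and the Ror, Rara, Rarg, Rxr, thyroid hormone, estrogen, estrogen-related, Ppar and vitamin D receptors. Nr4a2 and Nr2e1 were left out, and the names do not take in Rarb or the Nr1i receptors. The rule uses the array's annotation and no measured value. It found 93 probe sets of 36 genes among the 45037 probe sets of the array that are not controls, which carry single symbols of 18193 genes. Probe sets of 1 gene measure the same transcript or its variants and are not replicates of each other.

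Signals were measured in RNA of whole mouse brains at embryonic day 14.5 on 1-colour Affymetrix arrays, with 2 control and 2 double-knockout arrays. All embryos were of mixed 129SvJ/C57Bl/6J background and homozygous for floxed alleles of Sox4 and of Sox11, and the double knockouts also carried Brn4::Cre. This Cre driver is named for Brn4 (Pou3f4), and the labels do not say in which cells it acted. No group carried the driver without the floxed alleles, so the loss of the SoxC factors and the presence of Cre cannot be told apart. The series title names the spinal cord, whereas the sample labels name whole brain. The labels call the arrays biological replicates but do not say how many embryos each held. Each p-value therefore rests on how much arrays of a group differ, which may be technical. In limma's fit that spread is in large part taken from other probe sets of like signal (8.33 prior against 2 residual degrees of freedom). At 2 against 2 arrays an exact permutation test of a single value cannot give a two-sided p below 0.333, and the tests used here are from limma's fit over all probe sets. Rose and fell are used for probe sets with a Benjamini-Hochberg adjusted p under 0.05 over the 27022 probe sets tested. Changes are on the scale of log2(signal + 16), knockout minus control, and understate the change of dim probe sets.

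The targeted genes were lower in the libraries labelled double knockout at all 6 Sox11 probe sets (2.29-fold to 9.08-fold) and at 4 of the 6 tested Sox4 probe sets (2.13-fold to 6.48-fold). Of the other Sox4 probe sets, 1419157_at rose and 1433575_at did not pass, and where the probes lie relative to the deleted sequence is not known here. Arrays of the same group were alike, with a correlation over the 27022 probe sets tested (log2 scale) of 0.984 for controls and 0.987 for knockouts. It was 0.960 to 0.963 for pairs from different groups. Probe sets are not independent, so these values only describe the arrays.

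Several receptors act as sensors of hormones that reach the embryonic brain. The glucocorticoid receptor (Nr3c1) binds stress steroids, the thyroid hormone receptors bind triiodothyronine and control the timing of neuronal maturation, and the retinoid receptors read a patterning signal of the hindbrain and spinal cord. Others have no accepted natural ligand or bind molecules made within the cell. Rev-erb repressors (Nr1d1, Nr1d2) and Ror activators compete for 1 DNA element in the circadian clock, COUP-TFs (Nr2f1, Nr2f2) pattern the cortex and set interneuron identity, and estrogen-related receptors drive genes of mitochondrial metabolism. Many of these proteins recognise the half-site AGGTCA, alone or in pairs.

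Of the 8 receptor genes with a probe set that changed, 7 were matched by symbol to the RefSeq promoter table of GRCm38.p6, with 11 transcription starts in all. The sequences below show the 250 bases before the start, 5′ to 3′ on the strand of the gene, for a receptor that rose with other clock genes (Nr1d2), the Ror receptor that fell (Rora) and an immediate early receptor that rose (Nr4a3), with a short stretch of a receptor that fell (Esrrb). They lie at chr14:18239107-18239356 on the minus strand for Nr1d2, and on the plus strand at chr9:68653536-68653785 for Rora and chr4:48045055-48045304 for Nr4a3. The Esrrb stretch, from 1 of its 2 starts, lies at chr12:86360968-86360997 on the plus strand. Capitals mark AGGTCA in Nr1d2, the cyclic AMP response element half-site TGACGT in Nr4a3, and in Esrrb the reverse complement of the Sox motif AACAAT.
Nr1d2: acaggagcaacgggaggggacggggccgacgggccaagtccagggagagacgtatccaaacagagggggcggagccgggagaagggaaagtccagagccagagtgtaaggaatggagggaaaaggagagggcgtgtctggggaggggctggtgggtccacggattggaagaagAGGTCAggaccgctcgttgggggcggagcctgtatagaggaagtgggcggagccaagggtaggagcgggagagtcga
Rora: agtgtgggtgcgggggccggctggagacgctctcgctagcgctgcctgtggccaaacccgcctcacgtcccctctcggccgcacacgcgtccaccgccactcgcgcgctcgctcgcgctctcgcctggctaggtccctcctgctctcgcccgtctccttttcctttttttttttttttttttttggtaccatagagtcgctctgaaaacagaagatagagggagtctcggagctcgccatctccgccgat
Nr4a3: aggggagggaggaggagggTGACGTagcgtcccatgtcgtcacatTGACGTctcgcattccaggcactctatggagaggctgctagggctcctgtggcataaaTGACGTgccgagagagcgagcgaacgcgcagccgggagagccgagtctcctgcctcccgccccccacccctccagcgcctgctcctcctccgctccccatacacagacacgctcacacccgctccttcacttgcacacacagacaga
Esrrb: ctcccaagtcagATTGTTgactgcacaggc

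Each motif was searched on both strands, and no match overlapped another. AGGTCA was found in 14.0% of the 32851 promoter windows of this length. Among the 11 windows of the receptors that changed, it was found once, in Nr1d2, where it ended 72 bases before the start. AACAAT was found in 9.42% of all windows and in 1 of the 11, that of Esrrb. TGACGT was found in 6.47% of all windows and in 1 of the 11, that of Nr4a3. The Nr4a3 window held 3 copies, and 0.143% of all windows held at least 3. The Rora window held none of these motifs on either strand, and is shown for comparison. TGACGT was looked for after the Nr4a3 sequence had been read, and a match is a stretch of letters, not a shown binding site.

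Receptors both rose and fell. Of the 93 probe sets, 51 passed the filter on low signal, and of these 5 rose, 13 fell and 33 did not pass the test. Over all probe sets tested 11.7% rose and 11.6% fell, together 23.2%. The 2 groups of arrays did not overlap at 34 of the 51, with the knockouts above at 9 and below at 25. Over all probe sets they did not overlap at 62.9%, with the knockouts above at 31.3% and below at 31.6%. At the brightest tested probe set of each gene, 3 of 23 receptor genes rose and 3 fell, where 16.3% of all 12489 genes rose and 11.0% fell. The share called at the brightest probe set was 6 of 23, beside 27.3% of all genes. With probe sets averaged within genes, 9 of the 23 were called, of which 6 fell. The share of all genes called with that averaging is not given here, so these counts have no background beside them. The median log2 change of the 51 probe sets was -0.23, against -0.01 over all tested. For the 23 genes at their brightest probe set it was -0.09, against 0.06 over all genes. Rora alone held 4 of the 13 falls. With any 1 array left out fewer receptor probe sets fell, and fewer of all probe sets tested fell as well. These counts describe the probe sets that passed the filter, of which 4 had a group mean above it in controls only. The 5 rises were called with any 1 array left out.

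**Figure D1:**
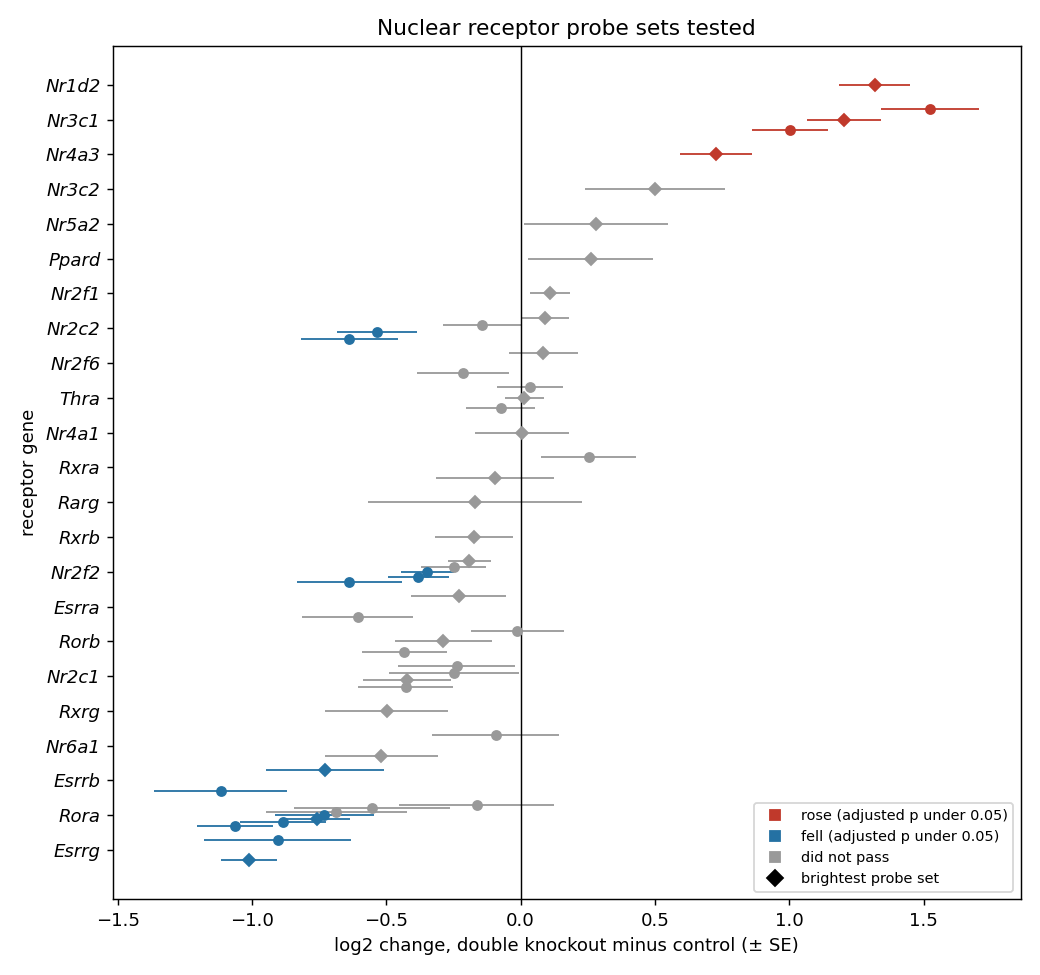
Log2 change with its SE (x axis, double knockout minus control) of each of the 51 tested receptor probe sets, grouped by gene (y axis) and ordered by the change at the brightest probe set of the gene, drawn as a diamond. Red points rose, blue points fell and grey points did not pass. Nr1d2, Nr3c1 and Nr4a3 lie to the right, and Esrrg, Rora and Esrrb to the left.

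The glucocorticoid receptor Nr3c1, the steroid receptor that mediates the stress response, was higher in the knockouts at each of its 3 tested probe sets. At 1460303_at the controls read 539 and 605 and the knockouts 1278 and 1396. Both knockout arrays lay well above both controls. The change was 2.30-fold (log2 change 1.20 ± 0.14, SE; limma adjusted p = 0.000294). At 1421867_at the signals were 671 and 558 in controls and 1236 and 1249 in knockouts (log2 change 1.00, adjusted p = 0.000945). At 1457635_s_at they were 219 and 275 against 760.4 and 713 (log2 change 1.52, adjusted p = 0.000386). All 3 gave the same direction, and the calls held with any 1 array left out. Of its 3 dimmer probe sets, below the filter, 1421866_at and 1453860_s_at were also higher in both knockouts, and 1431378_at was lower (82.3 and 58.3 against 19.5 and 6.3). Nr3c2, the mineralocorticoid receptor, which binds the same steroids with higher affinity, read 140.4 and 158 in controls and 208 and 228 in knockouts. Its arrays did not overlap, but the change did not pass (log2 change 0.50 ± 0.26, adjusted p = 0.194). Its mean lay above the filter in the knockouts only. The estrogen receptors Esr1 and Esr2 had no probe set above the filter.

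Genes that glucocorticoids are known to induce were examined as a list of 10. Of the 9 measured, 1 gene rose, 4 fell and 4 missed the threshold, beside 16.3% of all genes that rose and 11.0% that fell. The median log2 change was -0.42, against 0.06 over all genes. Without the variance trend 1 of the list fell. Dusp1, a phosphatase of MAP kinases, fell by 0.65 on the log2 scale (1.57-fold, adjusted p = 0.00125). Tsc22d3 (GILZ), a mediator of anti-inflammatory glucocorticoid action, read 3196 and 3033 in controls and 2177 and 2336 in knockouts (log2 change -0.46, adjusted p = 0.00834). Fkbp5, a co-chaperone that lowers the hormone affinity of the receptor, fell by 0.45 (adjusted p = 0.00819) and Cdkn1c, a cell cycle inhibitor, by 0.28 (adjusted p = 0.0458). The rise was that of Klf9, a zinc finger factor induced by both glucocorticoid and thyroid hormone, from 601 and 687 to 2228 and 1887 (log2 change 1.65, adjusted p = 5.88e-05). Sgk1 (-0.42, limma adjusted p = 0.0617) and Hsd11b2 (-0.71, limma adjusted p = 0.0538) were lower without passing. With the replicate number as a block in the fit both passed, and 6 of the list fell. Leaving out knockout 1, Sgk1 passed (-0.64), while Tsc22d3 (-0.41) and Fkbp5 (-0.42) missed the threshold. Cdkn1c missed it without control 1 (-0.19, adjusted p = 0.312), knockout 1 (-0.35, adjusted p = 0.0715) or knockout 2 (-0.22, adjusted p = 0.201). With control 2 left out the list held 2 rises. Of the 6 measured chaperones and co-chaperones of steroid receptors, 2 fell and 4 did not pass in limma's test. The falls were those of Fkbp5, already counted above, and Dnaja1, an Hsp40 (log2 change -0.26, limma adjusted p = 0.0174). Dnaja1 lost its call without control 2 (-0.22, adjusted p = 0.133) or knockout 1 (-0.21, adjusted p = 0.0702). The list then held 1 fall and 0 falls, the latter with 2 at an unadjusted p under 0.05 in limma.

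**Figure D2:**
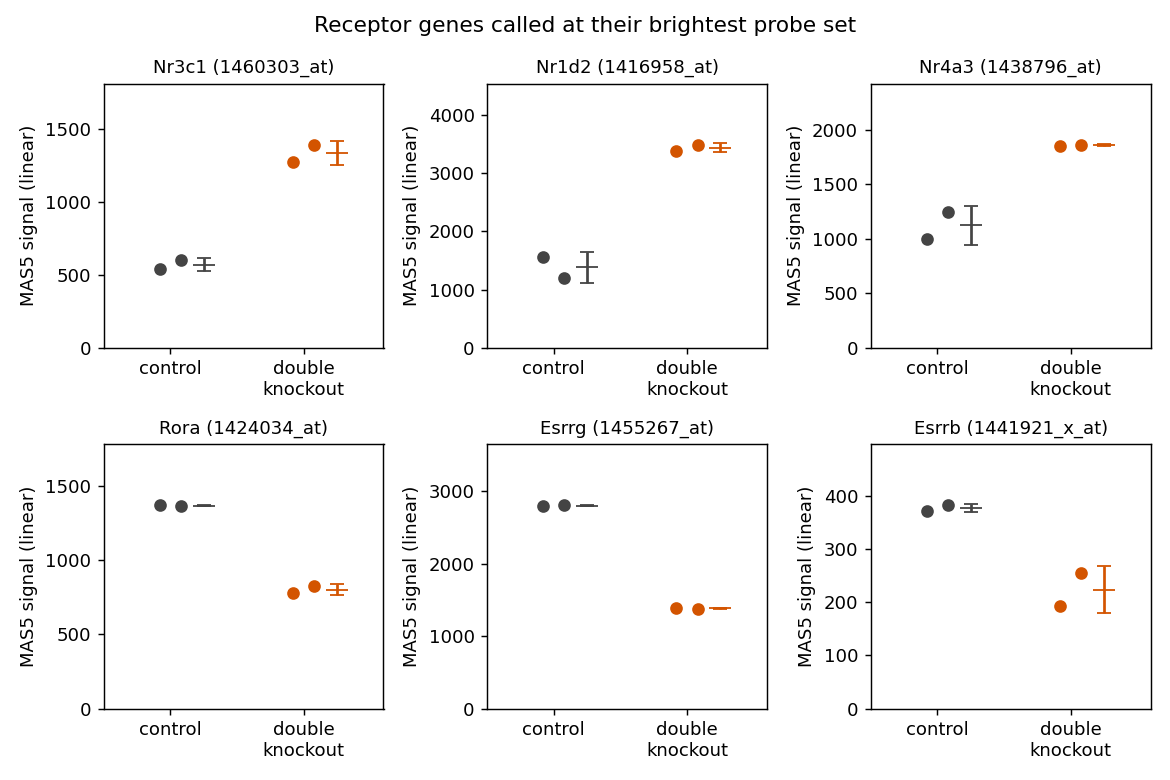
MAS5 signal on a linear scale (y axis, from 0) on each array for the 6 receptor genes called at their brightest probe set, in controls and double knockouts. Points are single arrays, and the bar beside them gives the mean and SD of 2 arrays. The groups do not overlap in any panel, and Esrrg falls from 2799 to 1381 with hardly any spread.

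Nr1d2 (Rev-erb beta), a haem-binding repressor of the circadian clock, showed the largest rise among receptor genes at their brightest probe set. Its probe set 1416958_at read 1564 and 1194 in controls and 3378.5 and 3486 in knockouts. The lower knockout array lay above the higher control array by more than the spread within either group. The change was 2.49-fold (log2 change 1.32 ± 0.13, SE; limma adjusted p = 0.000138). Its close relative Nr1d1 (Rev-erb alpha) had a single, dim probe set below the filter, at 27.8 and 13.7 in controls and 41.1 and 41.6 in knockouts.

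Rora, the activator that binds the same DNA element and is needed for Purkinje cell development, moved the other way. Of its 9 probe sets 7 were tested, and 4 fell and 3 did not pass. At the brightest, 1424034_at, the controls read 1368 and 1362 and the knockouts 775 and 826 (1.69-fold lower, log2 change -0.76 ± 0.12, adjusted p = 0.00214). At 1455165_at they read 1207 and 1085 against 561 and 517.5 (log2 change -1.06, adjusted p = 0.000643), and at 1420583_a_at 794 and 750.4 against 444 and 381 (-0.88, adjusted p = 0.00338). The knockout arrays lay below both controls at each. The 3 calls held with any 1 array left out. The fourth, 1436326_at (659 and 524 against 327 and 370.1, log2 change -0.73, adjusted p = 0.0172), did not pass without control 1 (-0.57, adjusted p = 0.0933), knockout 1 (-0.64, adjusted p = 0.112) or knockout 2 (-0.82, adjusted p = 0.0634). The log2 changes of the 3 that did not pass were -0.55, -0.69 and -0.16. The second of these, at 1458129_at, passed with median centring (-0.65, adjusted p = 0.0491) or without control 2 (-0.88, adjusted p = 0.0404). Rorb, a receptor of cortical layer 4 and of the retina, had log2 changes of -0.43, -0.29 and -0.01 at its 3 probe sets, none past the threshold (adjusted p from 0.0744). Whether Rora and Rorb differ in their change was not tested.

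Clock genes that carry Rev-erb and Ror elements or that are driven by the clock were examined as a list. Of 14 such genes 12 were measured. The test called 4 higher and 1 lower and left 7 uncalled, beside 16.3% of all genes that rose and 11.0% that fell. The median log2 change was 0.37 against 0.06 over all genes. Arntl (Bmal1), the core activator and a known target of both receptor types, read 599.5 and 531 in controls and 1017 and 998 in knockouts (log2 change 0.82, adjusted p = 0.00273). Per3, a component of the repressor arm, rose by 0.95 (adjusted p = 0.011), while Dbp (0.79) and Tef (0.58), output factors that bind D-boxes, rose as well. Nfil3 (E4BP4), a repressor that competes with Dbp and Tef for the D-box and is itself repressed by Rev-erb, fell from 1706 and 1828 to 836 and 699 (2.28-fold, log2 change -1.19, adjusted p = 0.000256). Clock, Cry1, Per1 and Per2 had log2 changes of -0.19, -0.10, 0.01 and 0.01 and did not pass. Per3 missed the threshold when knockout 1 (log2 change 1.0, adjusted p = 0.0742) or knockout 2 (0.90, adjusted p = 0.0937) was left out. In the latter case Dbp also missed it (0.66, adjusted p = 0.107) and 2 genes of the list rose. The labels do not give the hour at which brains were taken, and its part in these values was not tested.

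The estrogen-related receptors, orphan receptors that work with Ppargc1a on mitochondrial genes, had 6 tested probe sets. Of these 4 fell, those of Esrrg and Esrrb, and the 2 of Esrra did not pass, beside 11.6% of all probe sets tested that fell. Esrrg, the neuronal member, read 2794 and 2803.5 in controls and 1381 and 1381 in knockouts at 1455267_at. The arrays of each group nearly coincided, while the groups differed 2.01-fold (log2 change -1.01 ± 0.10, SE; limma adjusted p = 0.000155). Its other tested probe set, 1457896_at, read 281 and 253.5 against 164 and 111.5 (log2 change -0.90, adjusted p = 0.0376). Esrrb, better known from pluripotent cells and the inner ear, read 372 and 382 in controls and 193 and 255 in knockouts at 1441921_x_at (log2 change -0.73 ± 0.22, adjusted p = 0.0367). At 1436926_at it read 289 and 309.9 against 135 and 124 (log2 change -1.12, adjusted p = 0.00952). Esrra, the widely expressed member, overlapped between groups at its brightest probe set (625 and 870.0 against 597 and 658, log2 change -0.23, adjusted p = 0.386). At the other, 1442864_at, the knockouts lay below the controls without passing (-0.61, adjusted p = 0.059), though it passed with arrays centred on their medians (-0.57, adjusted p = 0.0347).

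The fall of Esrrg at its brightest probe set held with any 1 array left out, while the remaining calls of these receptors did not. Esrrg at 1457896_at did not pass without control 1 (-0.83, adjusted p = 0.112), control 2 (-0.97, adjusted p = 0.0548), knockout 1 (-1.15, adjusted p = 0.0613) or knockout 2 (-0.66, adjusted p = 0.183). Esrrb at 1441921_x_at, a probe set with a suffix for probes that can match other transcripts, did not pass without control 1 (-0.75, adjusted p = 0.0711), control 2 (-0.71, adjusted p = 0.0848), knockout 1 (-0.54, adjusted p = 0.189) or knockout 2 (-0.92, adjusted p = 0.0585). At 1436926_at it did not pass without knockout 2 (-1.06, adjusted p = 0.0574). Esrrg at 1457896_at and Esrrb at 1436926_at had a group mean above the filter in controls only. The shared coactivator Ppargc1a read 1462 and 1351 against 1141 and 1260.5 (log2 change -0.23, adjusted p = 0.213).

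The COUP-TF receptors, which pattern the cortex and guide interneurons, did not pass the test at their brightest probe sets. Nr2f1 read 14677 and 13265 in controls and 15548 and 14587 in knockouts, and the groups overlapped. Its log2 change was 0.11, with a 95% interval from -0.05 to 0.27 (limma adjusted p = 0.315). Nr2f2 was lower in both knockouts at each of its 5 tested probe sets, and 3 of these fell. At the brightest, 1416159_at, it read 7663 and 7157 against 6617 and 6366 and did not pass (log2 change -0.19, adjusted p = 0.111). The falls were at 1436475_at (2807 and 2895 against 2188 and 2289, log2 change -0.35, adjusted p = 0.0284), 1416160_at (-0.38, adjusted p = 0.0366) and 1444229_at (-0.64, adjusted p = 0.04). None of the 3 held in every setting that leaves out 1 array. That at 1436475_at was lost whichever array was omitted (-0.31 to -0.38, adjusted p 0.068 to 0.116). That at 1416160_at was lost without control 1 (-0.29, adjusted p = 0.215), knockout 1 (-0.39, adjusted p = 0.113) or knockout 2 (-0.37, adjusted p = 0.13). That at 1444229_at was lost without control 1 (-0.51, adjusted p = 0.142), knockout 1 (-0.85, adjusted p = 0.0519) or knockout 2 (-0.42, adjusted p = 0.227). With arrays centred on their medians, the falls at 1416160_at (-0.34, adjusted p = 0.0871) and 1436475_at (-0.31, adjusted p = 0.111) did not pass. Nr2f6, a further member of this branch, did not pass at either probe set (log2 changes 0.08 and -0.21).

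The testicular receptors Nr2c1 (TR2) and Nr2c2 (TR4), orphan receptors that bind direct repeats of the half-site, gave mixed readings. Nr2c2 at its brightest probe set, 1454851_at, read 7358 and 7127 in controls and 8319 and 7141 in knockouts (log2 change 0.09, adjusted p = 0.507), with overlapping groups. At 1439696_at it fell, from 1118.5 and 1018 to 661 and 811 (log2 change -0.53, adjusted p = 0.0255), as it did at 1425014_at, from 473 and 520.2 to 331.5 and 296 (-0.64, adjusted p = 0.0289). The probe sets of this gene disagree, and which transcript variants they cover is not known from the files. The first of the 2 falls did not pass without control 1 (-0.47, adjusted p = 0.0893) or knockout 1 (-0.39, adjusted p = 0.157). The second did not pass without control 2 (-0.57, adjusted p = 0.103), knockout 1 (-0.71, adjusted p = 0.0821) or knockout 2 (-0.56, adjusted p = 0.135). Nr2c1 had log2 changes of -0.43 to -0.24 at 4 tested probe sets, and 0 passed in limma. Of these, 2 had an unadjusted p under 0.05.

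Among the Nr4a receptors, immediate early genes that act without a ligand, Nr4a3 (Nor1) rose. At 1438796_at it read 995.8 and 1250.0 in controls and 1853 and 1864 in knockouts (1.66-fold, log2 change 0.73 ± 0.13, SE; limma adjusted p = 0.00362), and the call held with any 1 array left out. A dim probe set of the same gene below the filter, 1421079_at, read 63.8 and 55.4 in controls and 10.4 and 11.6 in knockouts, the opposite direction. Nr4a1 (Nur77) read 391 and 401 against 394 and 402, with a log2 change of 0.01 and a 95% interval from -0.38 to 0.40. The 2 receptors thus gave different readings, and the difference between them was not tested.

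The thyroid hormone and retinoid receptors had 8 tested probe sets of 5 genes, and 0 passed in limma at an adjusted or an unadjusted p under 0.05. Thra, which encodes the main thyroid hormone receptor of the developing brain, read 8320 and 8624 in controls and 8584 and 8518 in knockouts. Its log2 change was 0.01 with a 95% interval from -0.15 to 0.17. Rxrb, a common dimer partner, read 1983 and 2636 against 2200 and 1862.5 (log2 change -0.17, adjusted p = 0.422). Rxrg, the member found in striatum and pituitary, was lower in both knockouts (309 and 426 against 277 and 229.5) without passing (-0.50, interval -1.0 to 0.01, adjusted p = 0.143). Rxra had log2 changes of -0.09 and 0.25. Rarg had a wide spread between the knockout arrays (173 and 543), and its interval of -1.05 to 0.71 allows a large change in either direction. Without knockout 1 its log2 change was 0.61 (adjusted p = 0.138), the opposite sign. Rara and Thrb had no probe set above the filter, and Rarb was not among the members examined.

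Genes that supply or clear the ligands of these receptors changed in part. Among 9 measured retinoid genes the test called 1 higher and 3 lower and left 5 uncalled, with a median log2 change of 0.08. Over all genes 16.3% rose and 11.0% fell. Cyp26b1, which degrades retinoic acid, read 1650 and 1428.5 in controls and 1079 and 958 in knockouts (log2 change -0.59, limma adjusted p = 0.0099). Crabp2, which carries retinoic acid to its receptor, fell by 0.53 (adjusted p = 0.0199) and Crabp1, a second cellular carrier, by 0.37 (adjusted p = 0.0441). Dhrs3, which reduces retinaldehyde, rose by 0.55 (adjusted p = 0.0406). None of these calls held in every setting that leaves out 1 array, and that of Crabp1 was lost whichever array was omitted (-0.42 to -0.31). Leaving out an array also lowered the number of all probe sets called. Cyp26b1 did not pass without control 1 (-0.48, adjusted p = 0.0501) or knockout 2 (-0.50, adjusted p = 0.0779), Crabp2 not without control 2 (-0.42, adjusted p = 0.0974), knockout 1 (-0.44, adjusted p = 0.127) or knockout 2 (-0.62, adjusted p = 0.0548). Dhrs3 did not pass without control 1 (0.42, adjusted p = 0.175), knockout 1 (0.53, adjusted p = 0.172) or knockout 2 (0.57, adjusted p = 0.142). The number of falls among retinoid genes was 1 when either control was left out. It was 0 in limma when knockout 2 was left out, with 3 at an unadjusted p under 0.05. Rbp4, the retinol carrier of plasma, missed the threshold (log2 change 0.65, adjusted p = 0.0574), and the list held 2 rises with quantile normalization or median centring, where Rbp4 passed.

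Over all genes 16.3% rose. Of 5 measured genes of thyroid hormone supply, 1 rose and 4 did not pass. It was Crym (mu-crystallin), a cytosolic binding protein for thyroid hormone, which went from 665 and 595 in controls to 1897 and 2042 in knockouts (3.08-fold, log2 change 1.62 ± 0.13, SE; limma adjusted p = 4.84e-05). The knockout arrays lay far above both controls, and the call held with any 1 array left out. Slco1c1, a thyroxine transporter, had a log2 change of 0.26, and Ttr, the thyroxine carrier made by choroid plexus, of 0.14, and neither passed. Dio2, of the same list, was lower without passing with every array used (log2 change -0.65). Without control 1 its change was -1.05, past the threshold. Ttr passed without knockout 2 (0.20, adjusted p = 0.0334). The list held 2 rises when control 1, control 2 or knockout 2 was left out.

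Lipid and xenobiotic sensors were near or below the filter, and 1 of their 10 probe sets was tested. Ppard, a fatty acid receptor, read 219 and 205 in controls and 282 and 235 in knockouts (log2 change 0.26, limma adjusted p = 0.456). The liver X receptor Nr1h3 read 84.2 and 162 in controls and 138 and 153 in knockouts, below the filter and overlapping. Genes that liver X receptors and sterols are known to induce were examined as a list of 11, all measured. Of these 7 rose, 1 fell and 3 missed the threshold, beside 16.3% of all genes that rose and 11.0% that fell. The median log2 change was 0.59 against 0.06 over all genes. Apoe, a lipid carrier made by glia and macrophages, rose by 1.84 (3.59-fold, adjusted p = 1.55e-05) and Lpl, a lipase, by 0.85 (adjusted p = 0.00273). Abca1, a cholesterol exporter, read 5549 and 5724 in controls and 9015 and 9442 in knockouts (log2 change 0.71, adjusted p = 0.000211). Mylip, Lpcat3, Srebf1 and Pltp, of lipoprotein uptake, phospholipid remodelling and lipid synthesis or transfer, rose by 0.79, 0.66, 0.59 and 0.49. Scd1, a fatty acid desaturase, fell by 0.87 (adjusted p = 0.00128). With knockout 1 left out, 4 genes of the list rose, and Mylip (0.75, adjusted p = 0.0619), Lpcat3 (0.60, adjusted p = 0.0547) and Pltp (0.38, adjusted p = 0.0688) did not pass.

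Nr5a2 (Lrh-1) and Nr6a1 (Gcnf), receptors of early embryonic cells, did not pass. Nr6a1 at 1428826_at read 332 and 359 in controls and 220.2 and 254 in knockouts, without overlap (log2 change -0.52 ± 0.21, SE; limma adjusted p = 0.102). Nr5a2 had a log2 change of 0.28 (adjusted p = 0.492). Nr5a1, Nr0b1 and Nr0b2, the first a steroidogenic factor and the others receptors that lack the DNA-binding domain, had no probe set above the filter, as was the case for Ppara, Pparg, Vdr and Nr1h4. In all, 42 receptor probe sets were below the filter, with signals from 3.4 to 203, and 13 of the 36 genes had none above it. A low signal is not a statement of absence.

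Among the proteins through which receptors act on chromatin, 3 of 16 coactivators and 2 of 9 measured corepressors were called, beside 27.3% of all genes. Of the coactivators 1 rose, 2 fell and 13 did not pass, and of the 9 measured corepressors 2 fell and 7 did not pass, with median log2 changes of -0.09 and -0.03. Ncoa4, a coactivator that also carries ferritin to lysosomes, rose by 0.46 (limma adjusted p = 0.0047). The falls were those of the arginine methyltransferases Carm1 (-0.38, adjusted p = 0.0412) and Prmt1 (-0.24, adjusted p = 0.0353), and of Bcl11b (-0.54, adjusted p = 0.000516) and Bcl11a (-0.30, adjusted p = 0.016), zinc finger repressors of cortical and striatal neurons that bind COUP-TFs. Prmt1 lost its call whichever array was omitted (-0.29 to -0.18, adjusted p 0.0611 to 0.262). Carm1 did not pass without control 1 (-0.32, adjusted p = 0.158) or knockout 2 (-0.25, adjusted p = 0.207), nor Bcl11a without control 1 (-0.25, adjusted p = 0.14) or knockout 1 (-0.28, adjusted p = 0.065). The list of coactivators held 0 falls in limma without control 1 (3 at an unadjusted p under 0.05) or knockout 2 (1 at that level), and 2 rises without knockout 2.

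**Figure D3:**
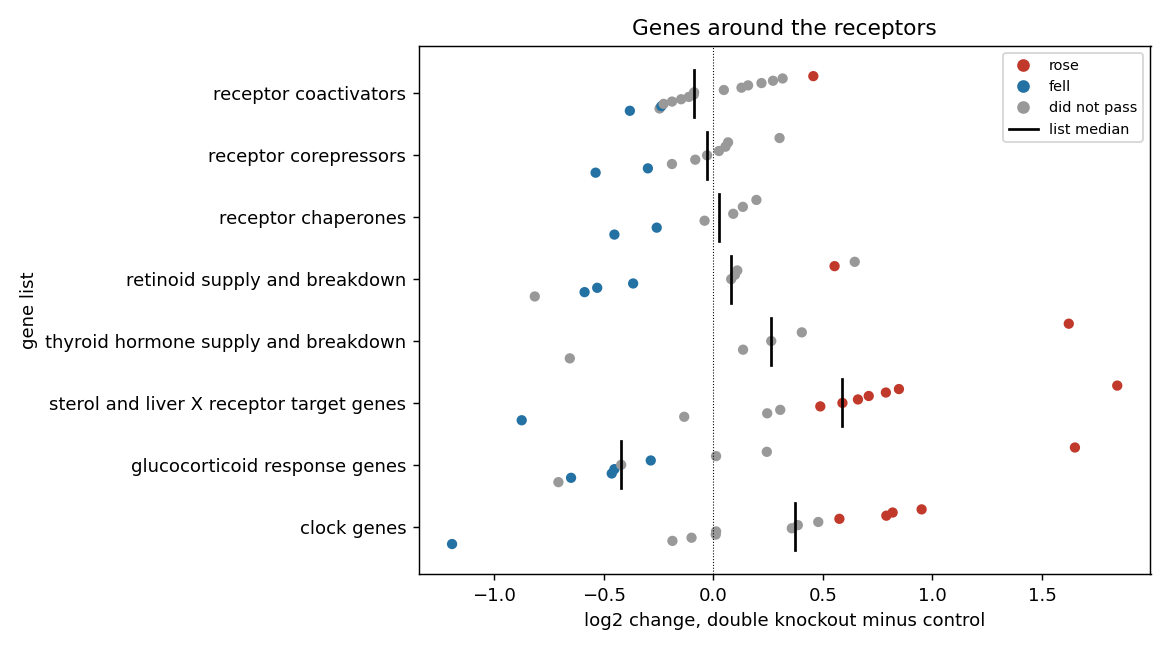
Log2 change (x axis, double knockout minus control) of each measured gene of 8 lists around the receptors (y axis), at the brightest probe set of the gene. Red points rose, blue fell, grey did not pass, and the black bar is the list median. Medians run from -0.42 for glucocorticoid response genes to 0.59 for sterol and liver X receptor targets.

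Markers of cell types differed between the groups together with these receptors. In bulk RNA, fewer cells of a type and less RNA per cell cannot be told apart. Over all genes at their brightest probe set 16.3% rose and 11.0% fell. Of 12 microglia and macrophage markers, 11 were measured and all 11 rose, with summed signals of 6737 and 7736 in controls and 25558 and 23096.5 in knockouts, and none was at 0. Mpeg1 (log2 change 2.35) and C1qa (2.14) rose most. Of 8 postmitotic neuron markers 6 fell and 2 did not pass, with summed signals of 128296 and 133514 against 95540 and 94037. Ina (-1.02) and Tubb3 (-0.75) fell most. Of the 2 that did not pass, Rbfox3 went the other way and was higher in both knockouts (0.21), and Map2 was lower (-0.135). Of 8 neural progenitor markers 4 rose and 4 did not pass (78875 and 73764 against 84464 and 86992.5), led by Mki67 (0.76) and Nes (0.61). Of the 4 that did not pass, Slc1a3 (0.27) and Fabp7 (0.04) were higher, and Hes5 (-0.17) and Sox2 (-0.05) lower. Of 8 endothelial markers 5 rose and 3 did not pass (7340 and 8075 against 10633.5 and 10201), among them Tek (0.65) and Cdh5 (0.50). Of 8 mesenchymal and meningeal markers 4 rose and 4 did not pass (29009 and 29708 against 37616 and 39726), among them Postn (0.76) and Col1a2 (0.40). The part of these cell types in the receptor changes, and in those of Apoe, Lpl, Abca1 and Klf9, was not tested.

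With 1 array left out, 10 to 12 microglia and macrophage markers rose and 5 to 6 postmitotic neuron markers fell. Without the variance trend 3 neuron markers fell. Counts of the other marker lists changed when an array was left out, as did the number of all probe sets called. Without control 1 or knockout 1, 0 endothelial markers rose in limma (4 at an unadjusted p under 0.05 in either case), and without knockout 2 a single one did. Cdh5 lost its call whichever array was omitted (0.49 to 0.52, adjusted p 0.0511 to 0.103), and Tek not without control 1 (0.42, adjusted p = 0.125), knockout 1 (0.60, adjusted p = 0.156) or knockout 2 (0.71, adjusted p = 0.102). Nes did not pass without knockout 1 (0.55, adjusted p = 0.057), Postn not without knockout 2 (0.59, adjusted p = 0.0545). The number of progenitor markers that rose was 2 without control 2 or knockout 1, and of mesenchymal markers 2 without knockout 2.

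**Figure D4:**
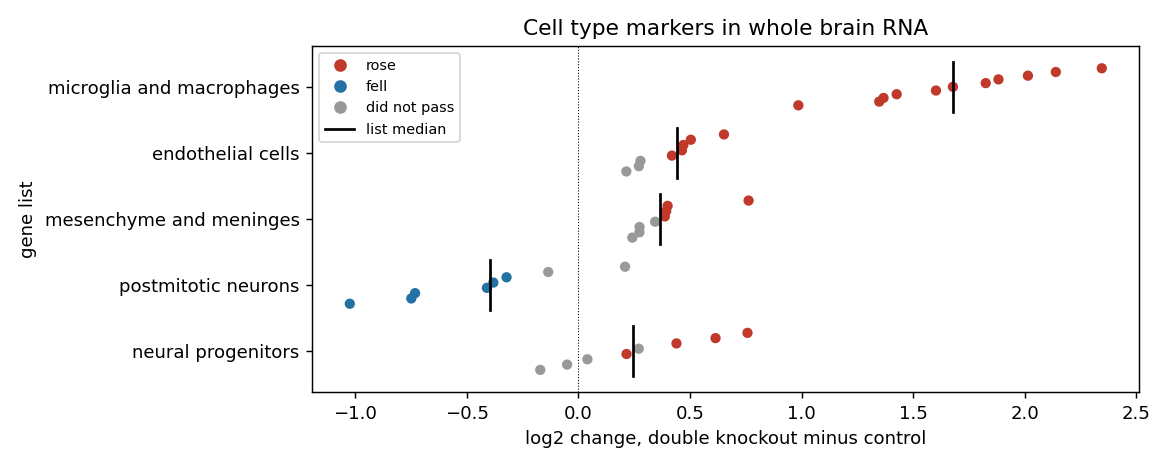
Log2 change (x axis, double knockout minus control) of the measured markers of 5 cell types (y axis), each at its brightest probe set. Red points rose, blue fell, grey did not pass, and the black bar is the list median. The microglia and macrophage markers lie furthest to the right with a median of 1.68, and the postmitotic neuron markers to the left with a median of -0.40.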

How the data were processed

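Per the submitters' processing notes the authors used MAS5 5.0, and what they deposited is a table of linear intensities, 1 value for each probe set and array. Every array had a trimmed mean of 1000 (2% cut at either end), so arrays had been scaled to 1 level, which removes a group-wide shift. Detection calls were not used here. No source used here names the genome build behind the probe sets.

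Groups came from the sample titles. The 64 array controls were left out. Symbols came from the platform annotation, in which 34945 probe sets had 1 symbol, 932 several and 9160 none. Signals were transformed as log2(signal + 16). Probe sets with a mean above the 40th percentile (log2 7.41, signal 155) were kept, 27022 in all. limma 3.58.1 under R 4.3.3 (lmFit, eBayes with a variance trend, Benjamini-Hochberg over all kept) tested knockout minus control, with 2 residual and 8.33 prior degrees of freedom. Intervals are 95% and unadjusted. The steps were tested on simulated data. With 2 arrays a group, precision is limited by their number.

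Per-array values are given for each receptor gene with a called probe set or a change of at least 0.5 at its brightest, and up to 2 rises and 2 falls are named per list; further genes were named after their values were seen. The members and lists were chosen with earlier results of these data known. Alternatives covered normalization, pseudocount, filter, variance trend, replicate block, single arrays left out and the mean of probe sets.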

Additional observations from a re-analysis of the deposited data

How the results depend on the processing

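No called receptor change turned its sign under any alternative run, whereas 12 of the 51 tested probe sets, none of them called, did. Quantile normalization gave 0.016 for Rorb 1425162_at and -0.037 for Thra 1454675_at, and median centring 0.030 for the former. With 1 array left out, the log2 change spanned -0.099 to 0.075 for Rorb 1425162_at, -0.012 to 0.039 for Thra 1454675_at, -0.011 to 0.081 for Thra 1443952_at and -0.23 to 0.084 for Thra 1426997_at. It spanned -0.012 to 0.025 for Nr4a1, -0.19 to 0.0052 for Nr6a1 1428825_at, -0.26 to 0.0028 for Rora 1458145_at and -0.46 to 0.0038 for Esrra 1460652_at. For Rxrb it was -0.38 to 0.029, for Nr2c2 1454851_at -0.020 to 0.20, for Rarg -0.95 to 0.61 and for Rxra 1425762_a_at -0.42 to 0.23. Among uncalled list genes, Per1 (-0.22 to 0.25), Per2 (-0.078 to 0.10) and Cry1 (-0.26 to 0.060) also turned. In all, 9 of the 18 calls held under every alternative that tested them: those of Nr1d2, Nr4a3, 3 of Nr3c1, 3 of Rora and 1 of Esrrg. The number of receptor probe sets that fell was 13, and was 6 with no filter, 8 with a filter at the 60th percentile, and 5 to 10 with 1 array left out. Of the 13, 2 were replaced by probe sets of Esrra and Rora with median centring. The filter at the 60th percentile tested 27 receptor probe sets. When probe sets were averaged within genes, 6 genes fell in place of 3, Esrra, Nr2c2 and Nr2f2 being added. The share of all genes that fell with that averaging is not given here, so this count has no background beside it. With 1 array left out, fewer receptor genes fell at their brightest probe set. The number of probe sets that rose stayed between 4 and 5. The number of all probe sets called was 3114 without the variance trend, and 3132 to 5422 with 1 array left out, against 6277. The cause was not tested. Without a filter, calls were lost at 1 probe set each of Rora, Esrrb and Esrrg, 2 of Nr2c2 and 2 of Nr2f2 (adjusted p 0.0561 to 0.113), and without the variance trend at 3 of Nr2f2 and 1 of Nr2c2 (0.0756 to 0.0994), by limma. Of the list genes named, Lpl, Cyp26b1, Tsc22d3, Fkbp5, Dhrs3, Ncoa4, Crabp2, Col1a2, Pltp, Tek, Crabp1, Carm1, Bcl11a, Dnaja1, Cdkn1c and Prmt1 lost their call without the trend (0.0531 to 0.212). Crabp1, Tek, Dnaja1, Carm1, Prmt1, Dhrs3 and Cdkn1c lost it without a filter (0.0664 to 0.105), Carm1, Crabp1, Bcl11a, Cdkn1c, Dnaja1 and Prmt1 with median centring (0.0796 to 0.254), and Crabp1 with quantile normalization (0.0501). Quantile normalization and pseudocounts of 1 and 64 changed no receptor call. With the replicate number as a block, 5 receptor probe sets rose, 14 fell and 6844 were called in all; the added fall was at Esrra. Same-numbered arrays share only a number (correlation of their deviations from the group means 0.00283). Where an array is left out, the remaining one of its group is assumed to have the spread of the other group. Alternatives for the lists were added after the data were seen. Without the variance trend 10 of the 18 list counts above 0 fell by more than 1.5 times, and 0 rose.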
